A study of Mus musculus with 2 samples.

Results

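Potassium channel genes were taken as the mouse genes whose official symbol starts with Kcn, found by matching the RefSeq accession of each array probe to the gene table. The rule gave 98 genes of 23458 genes with a matched probe, of which 94 were protein coding and 4 were long noncoding RNAs. All 98 Kcn symbols of the gene table had a probe. Each gene was represented by the brightest of its probes that the scanner software called well above background in either pool. Of the 98 genes, 49 (50%) were well above background on at least 1 array, against 14647 (62.4%) of all genes. The slow pool held 1659 GFP-positive single fibres from the soleus, a postural leg muscle, and the fast pool held 4447 fibres without GFP from the extensor digitorum longus (EDL). Both came from 8 male mice aged 6 to 8 weeks, heterozygous (G/+) for the GFP-Myh7 reporter allele, in which GFP marks slow myosin. Each pool gave 1 single-colour array from 0.1 µg of total RNA, so there were no replicates, no test across samples was possible, and a difference compares these 2 pools only. Fibre type and muscle of origin differed together and cannot be told apart. The tissue label of the slow sample says EDL, whereas its source name and the protocol say soleus. GFP was read as slow myosin alone, and the fast pool can hold every fibre type of the EDL without it.

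The labels held against fibre markers. All 7 slow fibre markers were at least 2-fold higher in the slow pool, with a median log2 difference of 7.51, and all 8 fast fibre markers were at least 2-fold higher in the fast pool, with a median of -6.63. Between 50.9% (slow) and 52.3% (fast) of the noncontrol spots were well above background, and no spot was saturated. All levels below are log2 of the processed signal minus the 75th percentile of the same array, so 0 is that percentile, and each ± is the error that the scanner software gives for the spot. That error covers 1 spot and not the spread between animals or pools. Levels depend on the probe and are compared between pools only, never between genes.

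Potassium channels let potassium leave the cell and so set the resting potential, end the action potential and limit repeated firing. In a muscle fibre the inward rectifiers hold the surface and transverse tubule membranes near the potassium equilibrium, and the voltage-gated channels repolarise the membrane after each action potential. Channels sensitive to ATP or to calcium link the membrane to the metabolic state and to calcium release. A channel is built from pore-forming subunits, which fall into the subfamilies that the letter after Kcn names, and many channels also carry accessory subunits that change gating or trafficking. A further group of voltage-gated subunits (Kcnf, Kcng, Kcns and Kcnv) is electrically silent alone and works only together with Kcnb subunits.

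The promoters of a pair of genes higher in the fast pool (Kcnc1 and Kcnc4, both Shaw-type voltage-gated channels) and of a pair higher in the slow pool (Kcnma1 and Kcnn3, both calcium-activated channels) are shown because these pairs carried differences at over 1 probe or the widest difference of the set. Each is a RefSeq window of GRCm38.p6 from 250 bases before to 50 bases after the annotated start, 5′ to 3′ on the gene's strand, with the E-box CANNTG, the motif of the myogenic factors, in capitals. Kcnc1 lies at chr7:46396218-46396517 (plus strand), Kcnc4 at chr3:107458849-107459148 (minus strand), Kcnma1 at chr14:24004156-24004455 (minus strand) and Kcnn3 at chr3:89519914-89520213 (plus strand).
Kcnc1: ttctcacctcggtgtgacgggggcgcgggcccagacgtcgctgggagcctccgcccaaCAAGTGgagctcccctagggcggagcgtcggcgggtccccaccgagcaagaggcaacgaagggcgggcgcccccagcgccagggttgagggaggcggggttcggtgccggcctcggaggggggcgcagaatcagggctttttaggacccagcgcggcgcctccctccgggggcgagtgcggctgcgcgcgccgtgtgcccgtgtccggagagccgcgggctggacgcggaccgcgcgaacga
Kcnc4: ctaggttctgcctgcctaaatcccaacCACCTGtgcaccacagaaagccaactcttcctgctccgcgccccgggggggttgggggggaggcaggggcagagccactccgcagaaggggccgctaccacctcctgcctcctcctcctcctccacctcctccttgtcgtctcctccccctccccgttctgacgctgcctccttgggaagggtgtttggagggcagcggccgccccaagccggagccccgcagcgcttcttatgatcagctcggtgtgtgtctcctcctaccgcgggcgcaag
Kcnma1: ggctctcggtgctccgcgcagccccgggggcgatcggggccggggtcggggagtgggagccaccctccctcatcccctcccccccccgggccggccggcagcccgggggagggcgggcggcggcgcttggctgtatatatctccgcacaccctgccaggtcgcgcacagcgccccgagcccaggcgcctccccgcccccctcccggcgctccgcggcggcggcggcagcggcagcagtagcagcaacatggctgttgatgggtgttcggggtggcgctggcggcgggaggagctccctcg
Kcnn3: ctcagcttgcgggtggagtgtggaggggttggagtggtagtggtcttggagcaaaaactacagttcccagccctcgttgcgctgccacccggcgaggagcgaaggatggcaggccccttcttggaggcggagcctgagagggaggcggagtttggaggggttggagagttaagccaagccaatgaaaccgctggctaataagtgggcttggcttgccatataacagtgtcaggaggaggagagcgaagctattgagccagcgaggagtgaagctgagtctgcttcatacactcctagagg
The Kcnc1 and Kcnc4 windows held 1 E-box each, and the Kcnma1 and Kcnn3 windows held 0. CANNTG reads the same on both strands. It is short and common: 72.3% of all 32851 promoter windows held at least 1, as did 71 of the 97 windows (73.2%) that belonged to 72 of the Kcn genes. Of the other motifs searched on both strands, the MCAT motif CATTCC was in 14.4% of the Kcn windows and 14.7% of all windows. The NFAT core GGAAA was in 56.7% of the Kcn windows and 61.3% of all windows. The TATA box TATAAA was in 5.16% of the Kcn windows and 13.6% of all windows. The MEF2 motif was in 2.06% of the Kcn windows and 3.19% of all windows. Of the genes past 2-fold, 19 had a window. An E-box was in 3 of 7 windows of 7 genes higher in the slow pool. It was in 13 of 14 windows of 12 genes higher in the fast pool, so some of these windows share a gene. In the same 7 and 14 windows, CATTCC was in 0 and 4, GGAAA in 4 and 6, TATAAA in 0 and 1 and the MEF2 motif in 0 and 0. The median GC content of those windows was 68.67% and 59%, against 58% over all Kcn windows and 52.67% over all windows. None of the 4 windows printed held CATTCC or any of the other 3. A match or its lack describes letters of this window and not a binding site.

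Of the 49 channel genes above background, 10 (20.4%) exceeded 2-fold in favour of the slow pool, against 10.8% of all genes above background, and 15 (30.6%) exceeded it in favour of the fast pool, against 14.3% of all genes. In either direction these were 25 genes (51.0%), against 25.0% of 14647 genes. Of them, 4 of the slow-pool genes and 6 of the fast-pool genes were above background on 1 array only and are given as bounds. A bound sets the bright pool against the lowest level well above background on the other array, or against the dim probe's own level where that was higher, and is given with the words at least. Past 4-fold there was 1 gene in the slow direction and 8 in the fast direction (18.4% in all, against 3.36%, 4.35% and 7.71% of all genes for the slow direction, the fast direction and both together).

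**Figure D1:**
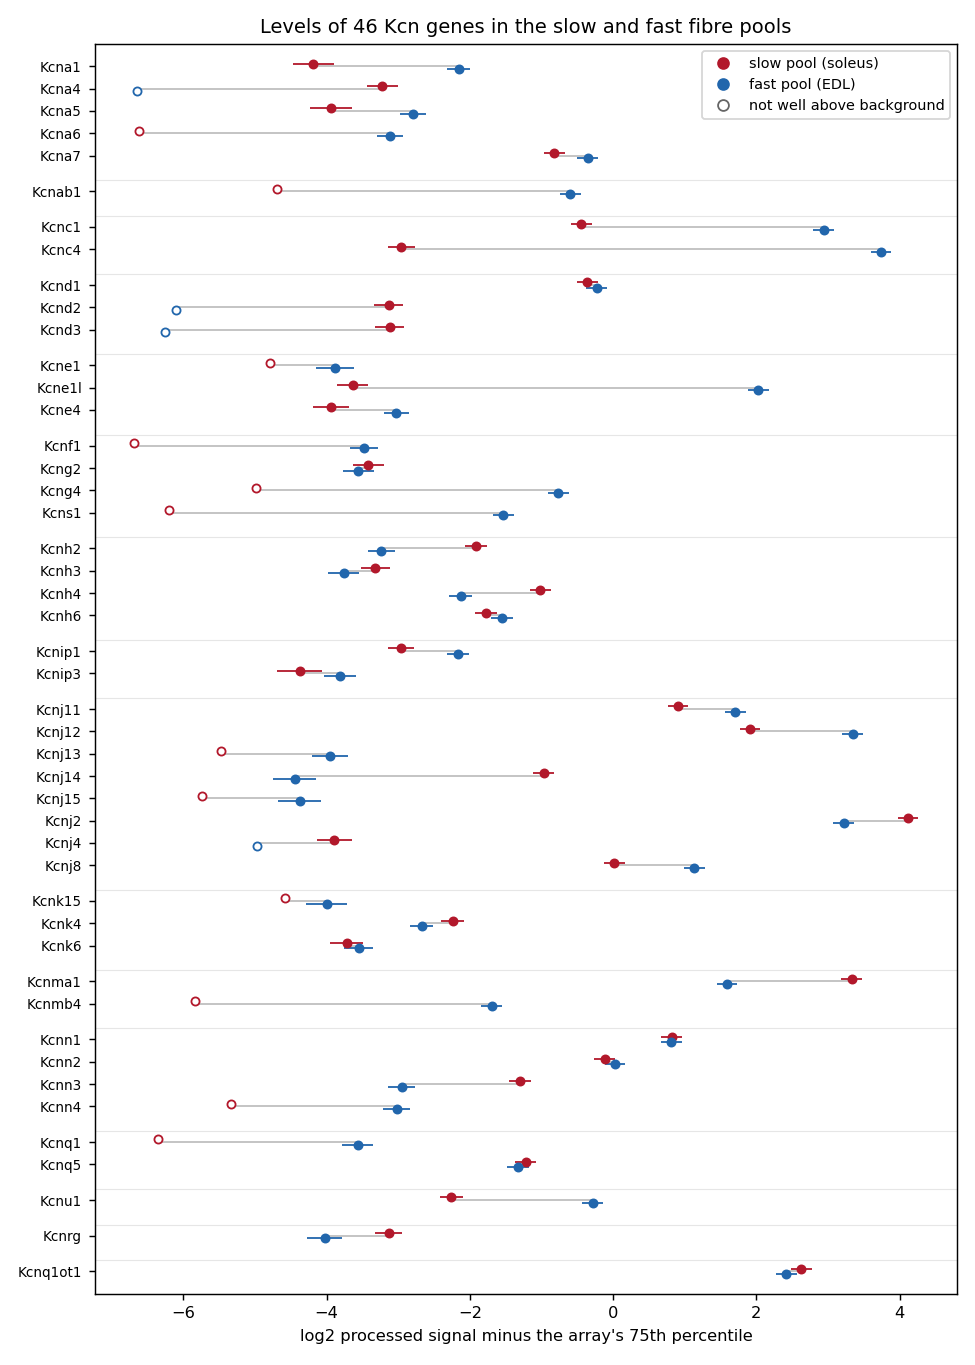
Log2 level (processed signal minus the array's 75th percentile) of 46 Kcn genes above background on at least 1 array, with the slow pool (red) drawn over the fast pool (blue) in each row; horizontal bars are the software error and open circles are not well above background. Rows are grouped by subfamily, and the widest gap is that of Kcnc4, at -2.96 in the slow pool and 3.74 in the fast pool.

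The 32 genes measured on both arrays avoid the bounds. Of these, 15 (46.9%) were at least 2-fold apart, against 22.2% of the 12846 such genes in all. In the slow direction there were 6, against a background of 9.47%, and in the fast direction 9, against 12.7%. Their median log2 difference, slow minus fast, was -0.16, against 0.05 for all genes, and 14 of the 32 lay above 0 and 18 below. Their differences had a median absolute size of 0.90, against 0.47 for all genes. The share of all genes past 2-fold varied with brightness. It was 28.4% at a mean level below -2, 30.4% between -2 and 0, 20.3% between 0 and 2 and 15.5% over 2. Of the channel genes, 6 of 14 in the dimmest class, 3 of 8 between -2 and 0, 4 of 6 between 0 and 2 and 2 of 4 over 2 were past 2-fold. The software error of a difference was 0.204 to 0.382 among the channel genes. Just past the 2-fold line, at 1 on the log2 scale, stood Kcnh4 (1.11) and Kcnj8 (-1.12), and just short of it stood Kcne4 (-0.91), Kcnj2 (0.90) and Kcnrg (0.89).

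**Figure D2:**
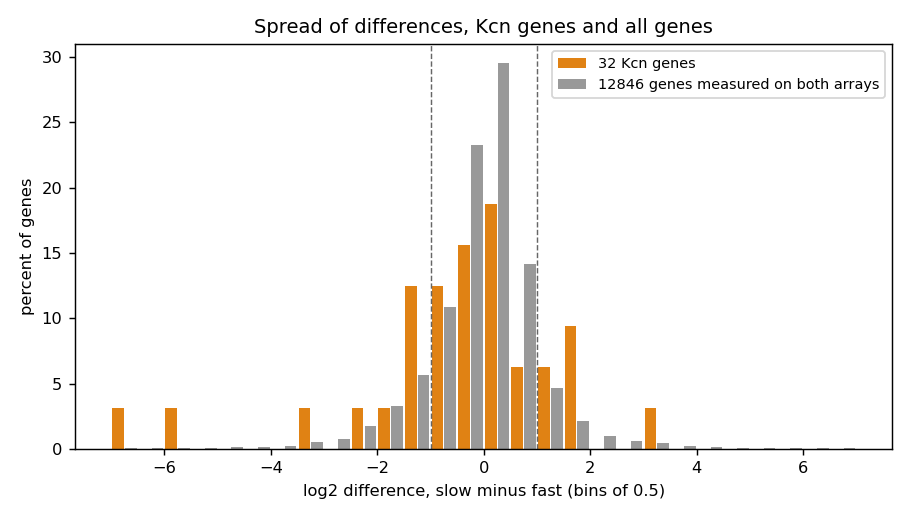
Percent of genes in each 0.5-wide class of the log2 difference, slow minus fast, for the 32 Kcn genes (orange) and the 12846 genes (grey) measured on both arrays; dashed lines mark 2-fold. Kcn genes lie past the lines in 46.9% of cases, against 22.2% of all genes, and those at the far left are Kcnc4 and Kcne1l.

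By role, the pore-forming genes went both ways. Of 67 such genes, 36 were above background, 10 were past 2-fold in the slow direction and 10 in the fast direction. Of 17 accessory subunit genes, 8 were above background, 0 were past 2-fold in the slow direction and 3 in the fast direction. Of 10 silent subunit genes, 4 were above background, 0 were past 2-fold in the slow direction and 2 in the fast direction. Of the 4 noncoding RNAs, 1 was above background and it was within 2-fold. Over all genes above background, 10.8% were past 2-fold in the slow direction and 14.3% in the fast direction. With so few accessory and silent genes, a count of 0 in the slow direction is close to that share. The same shares are the background for the subfamily, partner list and transport list counts below.

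**Figure D3:**
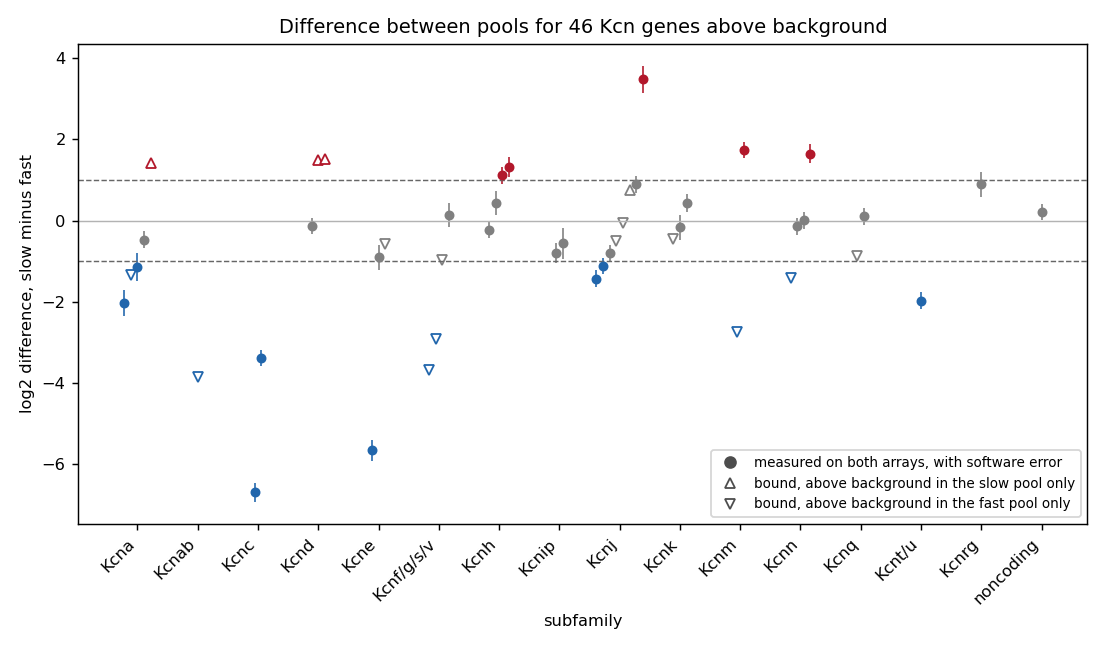
Log2 difference between the pools, slow minus fast, for 46 Kcn genes above background, by subfamily; filled points are measured on both arrays with the software error, open triangles are bounds, and dashed lines mark 2-fold. Genes past 2-fold in the slow pool are red and those past 2-fold in the fast pool are blue, and Kcna, Kcnj, Kcnm and Kcnn each hold both colours.

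The Shaw-type subfamily Kcnc, delayed rectifiers with fast gating that allow short action potentials, held the widest difference of the set. Kcnc4 had a log2 level of -2.96 ± 0.19 in the slow pool and 3.74 ± 0.14 in the fast pool, a difference of -6.70 ± 0.24. Its other probe, designed on a predicted transcript, was dim on both arrays (-3.81 in the slow pool and -3.40 in the fast pool) and differed by -0.41. Kcnc1 had -0.44 ± 0.15 in the slow pool and 2.94 ± 0.14 in the fast pool, a difference of -3.38 ± 0.21 or 10.4-fold. Its second probe differed by -4.10, and its remaining probe was above background in the fast pool only and gave at least 18.8-fold, so all 3 probes were higher in the fast pool. Kcnc2 was not above background on either array.

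The Shaker-type subfamily Kcna, low-threshold channels, had 5 of 8 genes above background, 1 past 2-fold in the slow direction and 3 in the fast direction. Kcna1 had -4.18 ± 0.28 in the slow pool and -2.16 ± 0.15 in the fast pool, 4.07-fold higher in the fast pool. Kcna5 had -3.94 ± 0.29 in the slow pool and -2.80 ± 0.18 in the fast pool, 2.20-fold higher in the fast pool. Kcna6 was not well above background in the slow pool (-6.62) and had -3.11 ± 0.18 in the fast pool, at least 2.51-fold higher there, and its other probe was not above background on either array. These 3 genes are direct neighbours on chromosome 6 in the RefSeq gene order. The neighbours Kcna3, Kcna2 and Kcna10 on chromosome 3 were not above background on either array. Kcna4 was the exception in direction, with -3.22 ± 0.22 in the slow pool and no signal well above background in the fast pool (-6.65), at least 2.66-fold higher in the slow pool. Kcna7, a Shaker-type gene known from skeletal muscle, stayed within 2-fold, with -0.82 ± 0.15 in the slow pool and -0.35 ± 0.15 in the fast pool. The median of the 3 Kcna genes measured on both arrays was -1.14.

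Among the other voltage-gated genes, the Shal-type genes (Kcnd), which carry rapidly inactivating currents, included Kcnd2 and Kcnd3 above background in the slow pool only. Kcnd2 was at least 2.83-fold and Kcnd3 at least 2.86-fold higher in the slow pool, and both were dim there (-3.13 and -3.12). Kcnd1 was at -0.36 in the slow pool and -0.23 in the fast pool. The ether-a-go-go-related genes (Kcnh) had 4 of 8 above background and a median of 0.78. Kcnh2, the rapid delayed rectifier of heart, had -1.92 ± 0.15 in the slow pool and -3.23 ± 0.19 in the fast pool, 2.49-fold higher in the slow pool, and its second probe, above background in the slow pool only, gave at least 3.49-fold. Kcnh4 was 2.16-fold higher in the slow pool by its brightest probe (-1.01 ± 0.15 in the slow pool and -2.13 ± 0.16 in the fast pool), but differed by 0.08 by its other probe. Kcnh3 (0.44) and Kcnh6 (-0.23) lay within 2-fold. The Kcnh6 probe was designed on a predicted transcript, and the other Kcnh6 probes were not above background on either array.

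In the Kcnq subfamily, slowly activating channels that stabilise the membrane potential, Kcnq5 had -1.22 ± 0.15 in the slow pool and -1.33 ± 0.15 in the fast pool, a difference within its software error. Kcnq1 was above background in the fast pool only, at least 1.84-fold higher there, which is short of 2-fold. Kcnq3 was not above background on either array. The noncoding Kcnq1ot1, transcribed antisense to Kcnq1, differed by 0.21 ± 0.20 by its brightest probe, while its 4 measured probes spanned -1.74 to 0.21, so its direction depended on the probe.

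The inward rectifiers (Kcnj) had 8 of 15 genes above background, 1 past 2-fold in the slow direction and 2 in the fast direction, and the 5 genes with a value in both pools had a median of -0.80 (0.14 over all 15 when dim probes were not filtered). Kcnj2 and Kcnj12, the classical strong inward rectifiers of muscle, differed in opposite directions. Kcnj2 had 4.12 ± 0.14 in the slow pool and 3.22 ± 0.14 in the fast pool, a difference of 0.90 ± 0.20, and its second probe gave 1.18. Kcnj12 had 1.91 ± 0.14 in the slow pool and 3.34 ± 0.14 in the fast pool, a difference of -1.43 ± 0.20, and its second probe gave -1.21. Both probes of each gene thus lay on the same side of 0. Kcnj14, a further strong inward rectifier, had -0.97 ± 0.15 in the slow pool and -4.44 ± 0.30 in the fast pool, 11.2-fold higher in the slow pool, and its other probe was not above background on either array. Kcnj4 was at least 1.67-fold higher in the slow pool, and Kcnj13 and Kcnj15 were at least 1.41-fold and 1.05-fold higher in the fast pool, all short of 2-fold.

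The ATP-sensitive channel pairs a Kcnj pore with a sulphonylurea receptor, so its parts were read together. Kcnj11, the pore of the muscle fibre channel, had 0.91 ± 0.14 in the slow pool and 1.71 ± 0.14 in the fast pool, a difference of -0.80 ± 0.20, and its other probe gave -0.64. Kcnj8, the pore known from vascular smooth muscle and pericytes, had 0.02 ± 0.15 in the slow pool and 1.14 ± 0.14 in the fast pool, 2.17-fold higher in the fast pool. Of the receptors, Abcc8 had 1.10 ± 0.14 in the slow pool and 2.26 ± 0.14 in the fast pool, 2.23-fold higher in the fast pool, and Abcc9 had 3.08 ± 0.14 in the slow pool and 3.75 ± 0.14 in the fast pool, a difference of -0.67 ± 0.20. All 4 genes were higher in the fast pool, Kcnj11 and Abcc9 by less than 2-fold. In such pools fewer cells of a type and less RNA per cell cannot be told apart. Of 8 smooth muscle and pericyte markers, 3 were at least 2-fold higher in the fast pool and 1 in the slow pool, with a median of -0.78 and a summed level of 721 in the slow pool and 793 in the fast pool, in multiples of the array's 75th percentile. Such a sum is weighted by the brightest probe, here Acta2, and without it was 6.68 in the slow pool and 13.3 in the fast pool. Single markers differed in direction: Rgs5 was at 0.89 in the slow pool and 2.50 in the fast pool. Cspg4, the 1 marker past 2-fold in the slow direction, was at 0.42 in the slow pool and -0.82 in the fast pool. Of 11 endothelial markers, 10 passed 2-fold in favour of the fast pool (median -1.48, summed level 7.34 in the slow pool and 28.3 in the fast pool). The part of these cells in the Kcnj8 difference was not tested.

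The calcium-activated channels differed by type. Kcnma1, the pore of the large-conductance channel, had 3.33 ± 0.14 in the slow pool and 1.59 ± 0.14 in the fast pool, 3.33-fold higher in the slow pool. All 5 of its probes were measured on both arrays, and their differences lay between 1.63 and 2.09. The brightest of them was designed on a predicted transcript and the others were not. Kcnmb4, a beta subunit of the same channel that is best known from brain, went the other way. It was not well above background in the slow pool (-5.84) and had -1.70 ± 0.15 in the fast pool, at least 6.72-fold higher there, although its other probe was not above background on either array. Kcnmb1, the beta subunit of smooth muscle, Kcnmb2 and Kcnmb3 were not above background on either array.

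All 4 small- and intermediate-conductance genes (Kcnn) were above background. Kcnn3, the small-conductance channel known to be re-expressed in denervated muscle, had -1.30 ± 0.15 in the slow pool and -2.95 ± 0.19 in the fast pool, 3.14-fold higher in the slow pool, and its second probe, above background in the slow pool only, gave at least 3.08-fold. Kcnn1 had 0.82 in the slow pool and 0.81 in the fast pool, and Kcnn2 had -0.12 in the slow pool and 0.03 in the fast pool, both differing by less than their software error. Kcnn4, the intermediate-conductance channel of red and white blood cells, was not well above background in the slow pool (-5.33) and had -3.02 ± 0.19 in the fast pool, at least 2.68-fold higher there. Its second probe was also above background in the fast pool only, but gave a bound of 1-fold, and its remaining probe was not above background on either array. All 5 measured erythrocyte markers were at least 2-fold higher in the fast pool (median -1.31, summed level 35.5 in the slow pool and 94.9 in the fast pool). Of 9 immune markers, 3 were at least 2-fold higher in the fast pool, and Ptprc, Adgre1 and Lyz2 were not above background on either array. The part of blood cells in the Kcnn4 difference was not tested. The subfamily median, over 3 genes, was 0.00 and its sign depended on the scaling.

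The sodium-activated Kcnt genes were grouped with Kcnu1, a relative of Kcnma1 known from mouse sperm. The only Kcnu1 probe had -2.26 ± 0.16 in the slow pool and -0.28 ± 0.15 in the fast pool, 3.92-fold higher in the fast pool, and Kcnt1 and Kcnt2 were not above background on either array. The tandem-pore channels (Kcnk), which carry background leak current, were mostly below detection: 11 of 14 were not above background on either array, Kcnk5 included. Kcnk4 (0.43 ± 0.23) and Kcnk6 (-0.17 ± 0.31) lay within 2-fold, and Kcnk15 was at least 1.36-fold higher in the fast pool.

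The 3 accessory subunits past 2-fold, of 8 above background, were all higher in the fast pool. Kcne1l, which the gene table also lists as Kcne5, a single-pass subunit that inhibits Kcnq1 channels, had -3.63 ± 0.22 in the slow pool and 2.03 ± 0.14 in the fast pool, 50.6-fold higher in the fast pool by its only probe. Kcnab1, the cytoplasmic beta subunit that speeds the inactivation of Shaker-type channels, was not well above background in the slow pool (-4.69) and had -0.60 ± 0.15 in the fast pool, at least 14.4-fold higher there. The other one was Kcnmb4. Kcne4 had a difference of -0.91 ± 0.31, Kcne1 was at least 1.48-fold higher in the fast pool, and Kcne2 and Kcne3 were not above background on either array. The calcium-binding partners of Shal-type channels, Kcnip1 (-0.80 ± 0.24) and Kcnip3 (-0.56 ± 0.38), lay within 2-fold. Kcnrg, a soluble regulator related to the channels' assembly domain, had a difference of 0.89 ± 0.31.

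Of the silent subunits, Kcng4 and Kcns1 were above background in the fast pool only. Kcng4 was not well above background in the slow pool (-4.99) and had -0.76 ± 0.15 in the fast pool, at least 12.8-fold higher there, and its second probe, also above background in the fast pool only, gave at least 1.33-fold. Kcns1 was not well above background in the slow pool (-6.20) and had -1.53 ± 0.15 in the fast pool, at least 7.54-fold higher there. Kcnf1 was at least 1.95-fold higher in the fast pool, just short of 2-fold, and Kcng2 differed by 0.14. The other 6 silent subunit genes were not above background on either array.

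Kcna1, Kcnab1 and Kcna6 are also known from axons and their nodes. Of 7 Schwann cell markers, 4 were at least 2-fold higher in the fast pool and 2 in the slow pool (median -1.09, summed level 19.8 in the slow pool and 9.40 in the fast pool). Without Pmp22, its brightest probe, the summed level was 1.97 in the slow pool and 4.84 in the fast pool, so its direction rested on that marker. Of 6 neuron markers, Nefl, Nefm, Nefh and Syt1 were not above background on either array. Snap25 had 3.49 in the slow pool and 3.08 in the fast pool, and Rbfox3 was above background in the fast pool only, at least 2.49-fold higher there. The part of nerve in these 3 differences was not tested. All 7 fibroblast markers passed 2-fold in favour of the fast pool (median -1.98, summed level 38.7 in the slow pool and 158 in the fast pool), and of the 4 satellite cell markers none was past 2-fold and Myf5 and Calcr were not above background on either array.

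**Figure D4:**
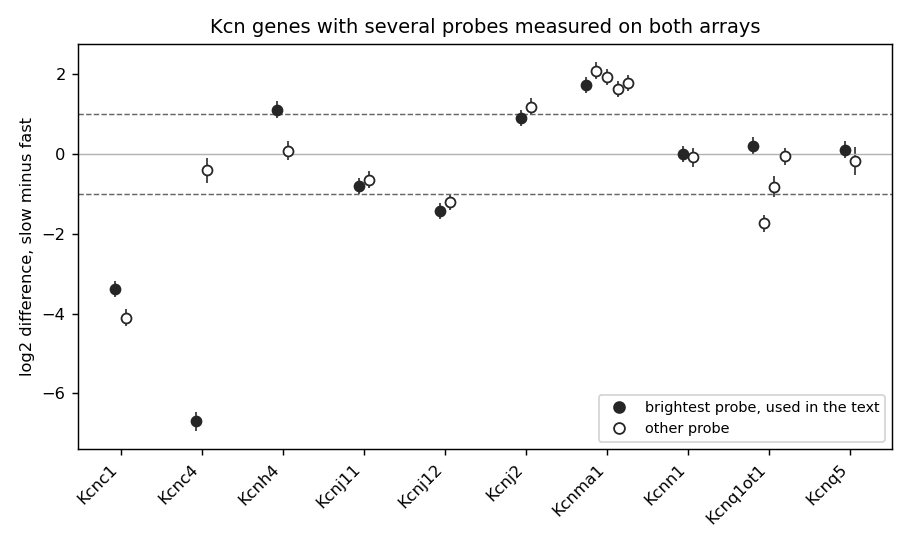
Log2 difference, slow minus fast, of every probe of 10 Kcn genes with over 1 probe measured on both arrays; filled points are the brightest probe, open points the others, bars the software error and dashed lines 2-fold. For 7 of the 10 genes all probes lie on the same side of 0, and for Kcnc4 the probes stand at -6.70 and -0.41.

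Probe choice mattered for some members. Of the 98 genes, 42 had over 1 probe, and the 156 probes of the set included 74 above background on at least 1 array. In 11 genes several probes were measured on both arrays, and in 8 of them all fell on the same side of 0. The exceptions were Kcnn1, Kcnq5 and Kcnq1ot1. With the median over probes in place of the brightest, Kcnc4 had a difference of -3.55, Kcng4 of -2.04, Kcnh4 of 0.60 and Kcnn4 of -0.71, the last 2 short of 2-fold. Other differences widened, such as Kcnc1 to -4.10 and Kcnj2 from 0.90 to 1.04, the latter past 2-fold in the slow direction.

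Genes that work with these channels under other symbols were read from 2 lists. Of 18 partner genes and related pacemaker channels, 12 were above background, with 2 past 2-fold in the slow direction and 4 in the fast direction. Lgi1, a secreted protein that binds axonal Shaker-type channel complexes, had 2.16 ± 0.14 in the slow pool and no signal well above background in the fast pool (-6.87), at least 111-fold higher in the slow pool. Lrrc52, an auxiliary subunit of Kcnma1 and Kcnu1 channels, had 0.36 ± 0.14 in the slow pool and -5.45 (not well above background) in the fast pool, at least 31.8-fold higher in the slow pool. Cntnap2, which clusters Shaker-type channels beside nodes of axons, was not well above background in the slow pool (-6.72) and had 0.15 ± 0.14 in the fast pool, at least 24.1-fold higher there. Lrrc38, a relative of Lrrc52, had 1.01 ± 0.14 in the slow pool and 2.89 ± 0.14 in the fast pool, 3.68-fold higher in the fast pool. The remaining one beside Abcc8 was the pacemaker channel Hcn2, named after its value was seen, at 4.69 in the slow pool and 6.45 in the fast pool. The median of the 8 partner genes measured on both arrays was -0.78. Of 12 potassium transport genes, 9 were measured on both arrays, with a median of -0.03. Past 2-fold were 3 in the slow direction, against 10.8% of all genes above background, and 0 in the fast direction, against 14.3%. With 9 genes, a count of 0 is close to that share. The 3 genes were the potassium-chloride cotransporters Slc12a7 (5.76-fold) and Slc12a4 (5.25-fold) and, named after its value was seen, the intracellular potassium channel Tmem38b (2.12-fold).

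The 49 genes that were not above background on either array had log2 levels of -6.76 to -4.75 in the slow pool and -6.95 to -4.44 in the fast pool, where the lowest levels that counted as well above background were -4.44 in the slow pool and -4.63 in the fast pool. Beside those already named they included Kcnab2, Kcnab3, Kcnb2, Kcng1, Kcng3, Kcns2, Kcns3, Kcnv1, Kcnv2, Kcnh1, Kcnh5, Kcnh7, Kcnh8, Kcnip2, Kcnip4, Kcnj1, Kcnj3, Kcnj5, Kcnj6, Kcnj9, Kcnj10, Kcnj16, Kcnk1, Kcnk2, Kcnk3, Kcnk7, Kcnk9, Kcnk10, Kcnk12, Kcnk13, Kcnk16, Kcnk18 and the antisense transcripts Kcnd3os, Kcnmb4os1 and Kcnmb4os2. A level at background does not show that a gene was off.

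**Figure D5:**
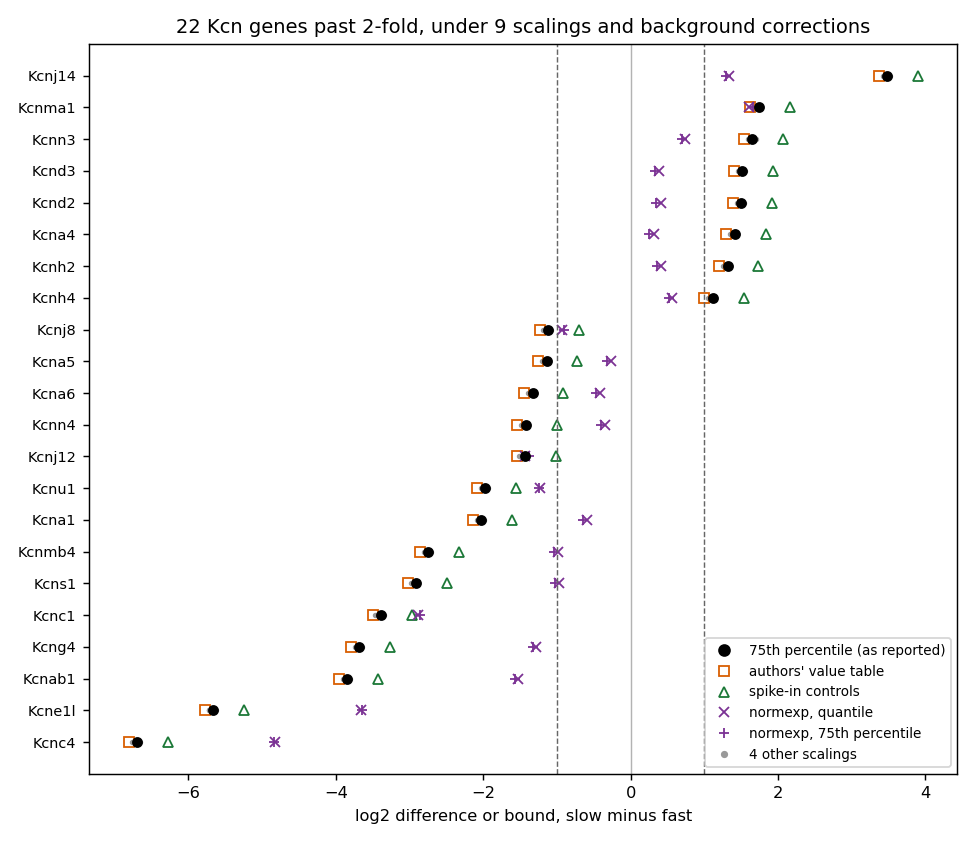
Log2 difference or bound, slow minus fast, of 22 Kcn genes past 2-fold under each of 9 scalings and background corrections; dashed lines mark 2-fold. All 22 keep their side of 0, which is fixed for the bounds. Normexp with its offset of 50 (crosses and pluses) draws the values and bounds of dim genes, such as Kcna1 and Kcnd2, between the lines.

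All 25 genes past 2-fold kept their side of 0 under 9 scalings and background corrections. For the bounds this was fixed, since a bound that crossed 0 was set to 0. Most scalings add a small and nearly equal amount to every difference, so keeping a side of 0 says little here. The sizes were smaller under normexp, which also adds an offset of 50 to each signal. The part of the offset was not tested. Past 2-fold under all 9 were 2 genes higher in the slow pool, Kcnj14 and Kcnma1, and 7 higher in the fast pool, Kcnc4, Kcne1l, Kcnab1, Kcng4, Kcnc1, Kcnu1 and Kcnj12. With normexp background correction and quantile normalization, 2 of the 49 genes were past 2-fold in the slow direction and 8 in the fast direction. The shares of all genes were 5.28% and 6.77%. With normexp and the 75th percentile the counts were 2 and 10 of the 49, against 5.37% and 6.79% of all genes. Under both, the count of 2 of 49 in the slow direction was close to the share of all genes. Under normexp with quantile normalization Kcnc4 stood at -4.83, Kcne1l at -3.66, Kcnj14 at 1.34, Kcnn3 at 0.74, Kcnh2 at 0.42 and Kcna1 at -0.59. Scaling on the spike-in controls adds 0.42 to each log2 difference. Then 13 of the 49 genes were past 2-fold in the slow direction and 11 in the fast direction. The shares of all genes were 21.4% and 8.96%. Under that scaling Kcna5 and Kcnj8 were among those within 2-fold, the bound of Kcna6 (-0.91 on the log2 scale) fell short of 2-fold, and Kcnj2 (1.32), Kcnj4 (at least 1.16 on the log2 scale) and Kcnrg (1.31) were past it in the slow direction.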

How the data were processed

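Each pool was hybridised to 1 single-colour Agilent mouse array, labelled with Cy3 after low-input amplification, per the labels' protocols, and, per the submitters' processing notes, signals were read with Feature Extraction 12.0.3.1 from Agilent. Both arrays shared 1 slide and 1 scan, per the file headers. The deposited intensity is the background-subtracted processed signal of each spot, per the file headers. The deposited value table is the same signal as an unlogged intensity, 2.45 times it in the slow pool and 2.83 times in the fast pool (column medians 27.12 and 30.1). Its direction and lack of centring follow from that comparison. The software that scaled it is not given in the sources used here.

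From these, control spots and 159 outlier spots (0 of them of Kcn genes) were removed. Processed signals were averaged over the spots of a probe. Log2 of the average was then taken minus each array's 75th percentile (191.687 slow, 179.075 fast). Of 56596 probes, 33763 (59.7%) matched a gene through RefSeq accessions (gene table of GRCm38.p6, used for names and gene order). Where a probe was above background on 1 array, the difference is a bound. Genes named in full are those past 2-fold and 16 muscle channel genes, and of the partner and transport lists the 2 highest and 2 lowest past 2-fold with Abcc8 and Abcc9. Values of 4 genes are not reported here, although the counts include them. The members and lists were chosen with earlier results of these data known.

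With 1 array per group there was no test. The calculation was tested on simulated data. Precision is limited by the number of arrays. The 288 repeated probes had a median SD of 0.045 between spots, and the software error of a difference had a median of 0.204 over all genes. Alternatives were the median, the percentile over probes detected on both arrays, quantile, loess (span 0.3), spike-in controls (8 of 10 above background on both arrays), the deposited table, normexp with offset 50 (limma 3.58.1, on the median signals), no filter on dim probes, the median over probes and size rules of 1.5-fold and 3-fold.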

Additional observations from a re-analysis of the deposited data

How the results depend on the processing

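The count of Kcn genes past 2-fold in the slow pool (10) was 2 under normexp with either normalization, 17 of all 98 genes without a filter on dim probes (against 10.7% of 23458 genes) and 4 with a 3-fold rule (against 5.30% of all genes). The count in the fast pool (15 of 49) was 8 under normexp with quantile normalization (against 6.77%) and 10 under normexp with the 75th percentile (against 6.79%). It was 23 of 98 without the filter (against 13.2%) and 9 with a 3-fold rule (against 7.30%). The share of calls that lay in the slow direction was 40%, and it was 54.2% with spike-in scaling, 20% under normexp with quantile normalization and 16.7% under normexp with the 75th percentile. The median difference (-0.16) was 0.26 with spike-in scaling, 0.14 without the filter and -0.43 with the median over probes, so its sign depended on these choices. The other 23 values of these 3 results stayed within 1.5 times for counts or within 0.22 for the median. That 0.22 is the median software error of a single Kcn difference and not an error of the median over genes. Spike-in scaling shifted the median of all genes by 0.42 and the deposited table by -0.11. No gene past 2-fold changed its side of 0 under the scalings, which was fixed in advance for the bounds. The sign changed under at least 1 scaling for the Kcnd, silent subunit, Kcnn and Kcnq medians. The same held for Kcnd1, Kcng2, Kcnh3, Kcnh6, Kcnk6, Kcnn1, Kcnn2 and Kcnq5. Without the filter the sign changed for the Kcnj median (0.14) and the Kcnn median (-0.07). With the median over probes it changed for the Kcnk median (-0.04), the Kcnn median (-0.04), Kcnn1 (-0.04), Kcnq5 (-0.04) and Kcnq1ot1 (-0.44). No paired analysis was possible because each group has 1 array, and no array could be left out for the same reason. Signal over background limits the genes given as bounds and the 49 below it.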
